A study of Mus musculus with 12 samples.

Results

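The genes described here are 7 transcription factors and cofactors of the adrenal primordium, the capsule and the cortex: Nr2f1, Nr2f2, Gata6, Wt1, Cited2, Tcf21 and Hoxb9. They were chosen by gene symbol, and each is read by 1 of the 25344 spots on every array. They are 7 of 17880 named genes that were tested, and each had a value on all 12 arrays. Adrenal glands of mice of line #56, which carry Ftz-F1 (Nr5a1, the gene of the nuclear receptor SF-1) as a transgene that the labels call YAC, were each compared on 2-colour arrays with those of a wild-type littermate matched for sex and age. The 4-month group held the homozygous (2 copies) transgenic mice 1 and 3 (male) and 5 (female), and the 10-day group held the heterozygous (1 copy) transgenic mice 11 and 13 (male) and 15 (female). Each transgenic mouse and its littermate form a pair that carries the number of that mouse in the labels, and each pair was hybridised on 2 arrays with the dyes exchanged. The labels give neither the strain nor the promoter of the transgene. Age and transgene copy number change together, so the effect of one cannot be told apart from that of the other.

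The adrenal cortex arises from cells of the coelomic epithelium that switch on SF-1, and WT1 with its partner CITED2 raises SF-1 in this primordium in mice. HOXB9 is a homeodomain protein that acts on the enhancer that drives SF-1 in the fetal adrenal. After birth the cortex is renewed from the capsule and the cells under it, where COUP-TFII (Nr2f2), TCF21, WT1 and GATA6 mark or act in progenitor and stromal cells. COUP-TFI (Nr2f1) and COUP-TFII are orphan nuclear receptors that bind DNA half-sites like those of SF-1.

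All values are log2 ratios of the 2 channels, corrected for the dye trend of each array. No source used here says which channel was the numerator, so signs are as deposited. If wild type was the numerator, every sign turns, the bounds of an interval too, while sizes, interval widths and p-values stay. In whole glands, fewer cells of a type and less RNA per cell cannot be told apart.

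The targeted gene was read first as a check. Nr5a1 was at -0.46, 0.11 and -0.22 in the 4-month pairs 1, 3 and 5 and at -0.57, -0.65 and -0.79 in the 10-day pairs 11, 13 and 15. It was negative in 5 of 6 pairs, with a mean of -0.43 (SE 0.09, limma adjusted p = 0.104). Which transcripts the spot reads, those of the transgene among them, is not given, so no direction was taken from it. Of 14 markers of steroidogenic cortex 9 were measured, and 7 of these lay above percentile 75 of spot signal. Array medians of the deposited ratio lay between -0.68 and -0.22 where Cy3 marked the transgenic sample and between 0.74 and 1.50 where Cy5 did, and the correction removed this offset. The array descriptions give one date for all arrays of a dye orientation and another for those of the other, so dye and date cannot be told apart.

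The COUP-TF genes are shown with their promoters because one of them had the largest mean ratio of the 7 genes and the other a mean near 0. Nr2f1 lies at chr13:78188971-78198873 and Nr2f2 at chr7:70351946-70366746, in RefSeq's annotation of GRCm38.p6. The 250 bases before the outermost start of each gene, on the minus strand, are given 5′ to 3′ from RefSeq (GRCm38.p6). They span chr13:78198874-78199123 for Nr2f1 and chr7:70366747-70366996 for Nr2f2. Capitals mark runs of at least 7 G or 7 C, a feature chosen after the sequences were seen.
Nr2f1: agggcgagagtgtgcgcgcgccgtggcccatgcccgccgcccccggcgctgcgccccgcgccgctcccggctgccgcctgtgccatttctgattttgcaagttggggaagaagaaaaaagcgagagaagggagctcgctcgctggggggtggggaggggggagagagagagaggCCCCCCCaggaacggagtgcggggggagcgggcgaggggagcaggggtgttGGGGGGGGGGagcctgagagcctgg
Nr2f2: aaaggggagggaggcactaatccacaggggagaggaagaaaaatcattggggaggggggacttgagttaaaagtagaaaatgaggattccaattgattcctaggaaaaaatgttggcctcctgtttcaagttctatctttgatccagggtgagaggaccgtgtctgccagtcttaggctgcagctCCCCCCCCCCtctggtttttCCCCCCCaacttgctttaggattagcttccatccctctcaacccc

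Neither window holds the SF-1 half-site AAGGTCA on either strand, which 4.079% of the 32851 promoters of the table hold, nor the shorter half-site AGGTCA, which 14.024% hold and which every AAGGTCA contains. Both hold a run of 10 G or 10 C, as 2.667% of promoters do. The Nr2f1 window had a GC content of 72.0% and the Nr2f2 window 50.0%, against a median of 52.4% over all promoters. Nr2f1 has another promoter in the table, at chr13:78196450-78196699, which is not printed. That window had a GC content of 39.6%, no run of G or C longer than 5 and neither half-site. Of the 7 genes 4 matched the promoter table, Cited2 and Tcf21 being the others, and these also held neither half-site. The GATA motif AGATAA, held by 9.988% of promoters, occurred once, in the Tcf21 window 31 bases before the start. The E-box CAGCTG (13.001% of promoters) and the EGR1 and WT1 motif GCGGGGGCG (2.572%), both searched on either strand, occurred in none of these windows. These matches describe letters in a window and not binding.

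Nr2f1, the gene of COUP-TFI, had a positive ratio in all 6 pairs, the largest mean of the 7 genes, and did not pass the test across all features. It was at 0.37, 0.71 and 0.42 in the 4-month pairs and at 0.02, 0.36 and 1.19 in the 10-day pairs. Pair 15 was highest and pair 11 nearly at 0, both of them 10-day pairs, and the range of the 10-day group takes in all 4-month values. The mean was 0.50 ± 0.18 (SD, n = 3) at 4 months and 0.52 ± 0.60 (SD, n = 3) at 10 days. Over all 6 pairs it was 0.51 (95% interval 0.18 to 0.84), a ratio of 1.43 (1.134 to 1.795) with limma adjusted p = 0.177. By group the adjusted p in limma was 0.378 at 4 months and 0.544 at 10 days. Positive in 6 of 6 pairs were 5.66% of all features with 6 values. The mean of the 10-day group rested on pair 15, without which it was 0.19 (limma adjusted p = 0.798), and the mean over all pairs was then 0.35 (adjusted p = 0.206).

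Both dye orientations gave Nr2f1 a positive mean, 0.38 in Cy3 and 0.65 in Cy5. With the transgenic sample in Cy3 they were 0.06, 0.45 and 0.37 at 4 months and 0.12, 0.18 and 1.09 at 10 days. With it in Cy5 they were 0.69, 0.98 and 0.48 at 4 months and -0.07, 0.54 and 1.28 at 10 days. Thus 11 of 12 arrays were positive, all but the Cy5 array of pair 11. The error of a pair mean, taken from the differences between dye swaps, was 0.15, and the SD of pairs within a group was 0.44. Over all probes the medians of these quantities were 0.165 and 0.226.

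Nr2f2, the gene of COUP-TFII, had no common sign. It was at -0.28, 0.34 and -0.07 in the 4-month pairs and at -0.56, 0.02 and 0.31 in the 10-day pairs. The groups overlap, with pair 11 below every 4-month value. The mean was -0.01 ± 0.31 at 4 months and -0.07 ± 0.44 at 10 days (SD, n = 3 each), and -0.04 over all pairs (95% interval -0.34 to 0.26, limma adjusted p = 0.914). The value of pair 3 averages arrays of opposite sign, -0.28 in Cy3 and 0.96 in Cy5, and in pair 11 the arrays were at -0.94 and -0.17. In the other 4 pairs the arrays lay between -0.40 and 0.42, with opposite signs in pairs 5 and 13. Of the 6 arrays of each orientation 1 was positive in Cy3 and 4 in Cy5, and the means differed by 0.405. The error of a pair mean from the dye swaps was 0.26, at percentile 85.0 of all probes. Nr2f6, the third receptor gene of this family, was at 0.03, 0.31 and -0.06 at 4 months and at -0.57, -0.26 and 0.38 at 10 days, with a mean of -0.03 over all pairs (limma adjusted p = 0.937). In all 3 genes pair 11 was the lowest, and pairs 3 and 15 were the highest.

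**Figure D1:**
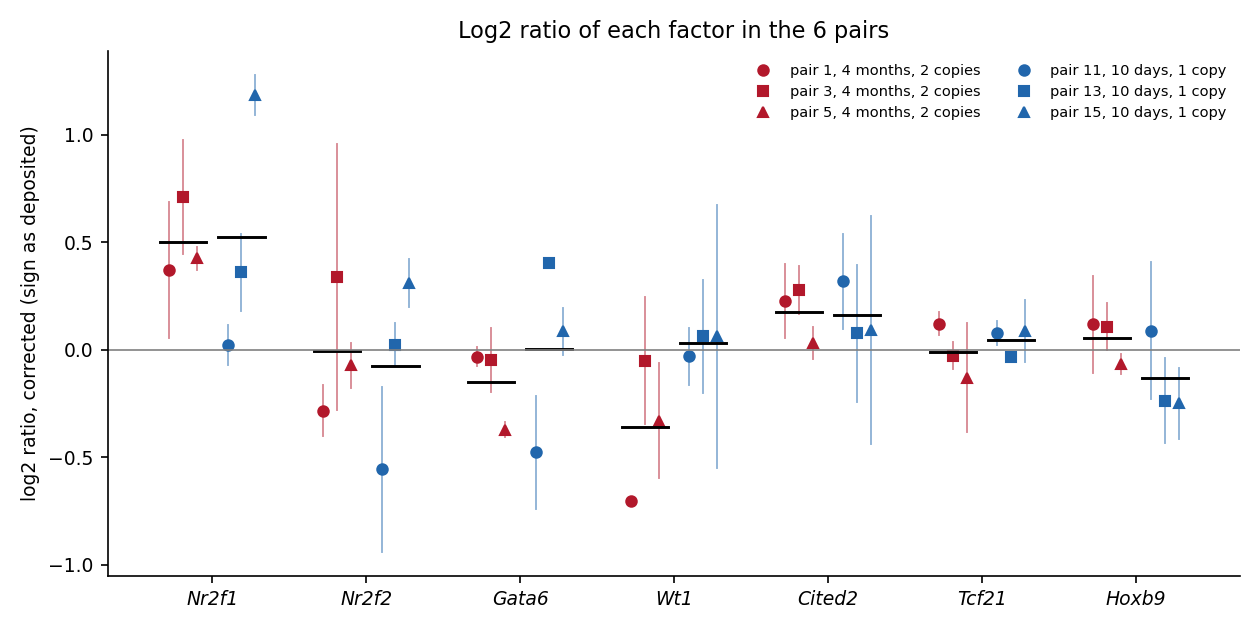
Corrected log2 ratio (vertical axis, sign as deposited) of the 7 genes in each pair, with the 4-month pairs in red left of the 10-day pairs in blue. Points are means of the 2 dye-swap arrays, thin lines join the values of those arrays, and black bars are group means. Nr2f1 is above 0 in every pair, from 0.02 to 1.19, and Wt1 reaches -0.70 in pair 1.

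Markers of other cells also differed between these pairs, and their part in the COUP-TF values was not tested. Over all pairs 47.1% of all features were positive. Chromaffin cell markers (14 of 15 measured, 12 positive over all pairs) had medians of 0.29, 0.67 and 0.69 in the 4-month pairs and 0.04, 0.51 and 0.74 in the 10-day pairs, lowest in pair 11 and highest in pair 15, as for Nr2f1. Capsule and fibroblast markers (13 of 13 measured, 3 positive) had medians of -0.22, -0.10 and -0.06 at 4 months and -0.31, -0.16 and 0.30 at 10 days. Adipocyte markers (9 of 10 measured) had medians of -0.20, -0.23 and 0.19 at 4 months and -0.24, -0.05 and 1.78 at 10 days. Thus pair 15, where Nr2f1 was highest, was also the pair with the highest medians of these 3 lists. Hepatocyte markers (11 of 12 measured) had a median of 1.46 in pair 11, while the other 5 pairs had medians from 0.00 to 0.37. Steroidogenic cortex markers had medians of -0.20, 0.69 and 0.15 at 4 months and -0.42, -0.03 and 0.24 at 10 days, with pair 11 lowest and pair 3 highest, as for Nr2f2. Endothelium markers (13 of 13) lay between -0.04 and 0.10 in all pairs but pair 3 (-0.33). Lymphocyte markers (10 of 12) were at -1.86 and macrophage and spleen markers (10 measured) at -1.20 in pair 3. In the other pairs they were at -0.27 to -0.01 and -0.45 to 0.32.

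**Figure D2:**
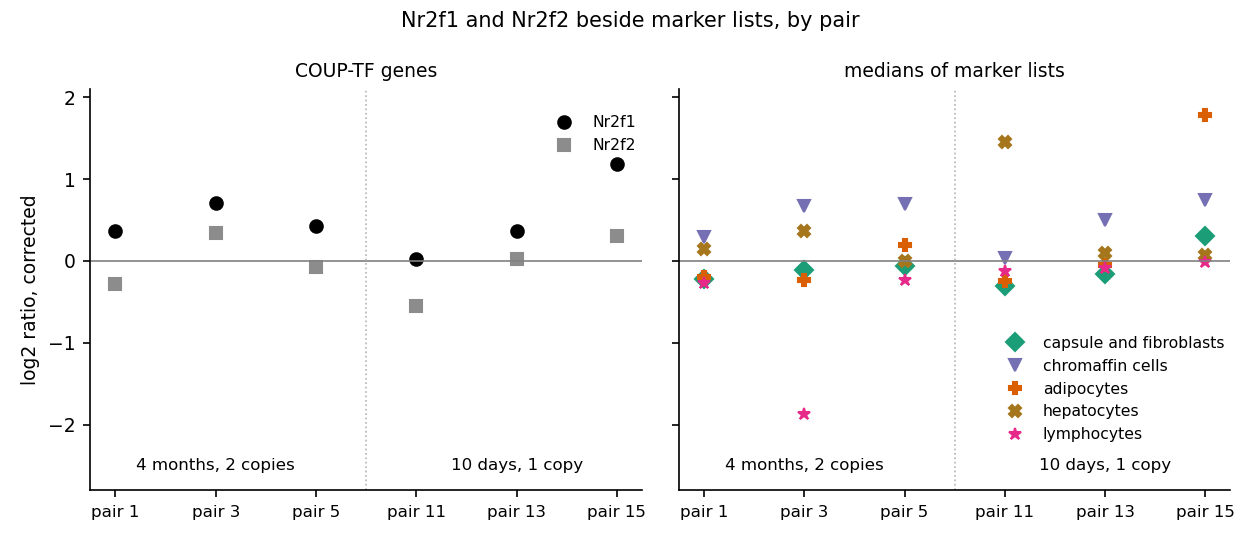
Corrected log2 ratio in each pair (horizontal axis, 4-month pairs left of 10-day pairs) of Nr2f1 and Nr2f2 (left panel) and the median of 5 marker lists (right panel). Pair 15 holds the highest Nr2f1 value, 1.19, and the highest adipocyte median, 1.78, while pair 11 holds the lowest Nr2f1 value, 0.02, and the highest hepatocyte median, 1.46.

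Wt1, which encodes the zinc finger protein of the adrenogonadal primordium (chr2:105126529-105173614), was negative in the 4-month pairs. In pair 3 it was near 0, as it was in the 10-day pairs. It was at -0.70, -0.05 and -0.33 at 4 months and at -0.03, 0.06 and 0.06 at 10 days. The groups do not overlap, although pair 3 at 4 months and pair 11 at 10 days lie close together. The error of a pair mean from the dye swaps was 0.21, more than the gap between these 2 pairs. The mean was -0.36 ± 0.33 at 4 months (limma adjusted p = 0.348) and 0.03 ± 0.05 at 10 days (SD, n = 3 each, adjusted p = 0.975). The 4-month minus 10-day difference was -0.39 (SE 0.19, 95% interval -0.82 to 0.04, limma adjusted p = 0.935). Groups without overlap were found for 10.4% of all features with 6 values. Without pair 1 the 4-month mean was -0.19 and the mean over all pairs -0.079, against -0.16 with it.

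The dye orientations of Wt1 did not give the same sign. With the transgenic sample in Cy3 all 6 arrays were negative, at -0.69, -0.34 and -0.60 at 4 months and -0.16, -0.20 and -0.55 at 10 days. With it in Cy5 they were at -0.71, 0.24 and -0.06 at 4 months and 0.10, 0.33 and 0.68 at 10 days, and 4 of 6 were positive. The means of the orientations differed by 0.52, at percentile 79.0 of the size of this difference over all probes, whose median was 0.269. Only in pair 1 did the arrays coincide. The spot was also dim, at percentile 12.6 of signal. WT1 is also a protein of mesothelium, podocytes of the kidney and gonadal cells, so their markers are given beside it. Mesothelium markers (9 of 9 measured) had medians of -0.02, 0.04 and 0.09 in the 4-month pairs and 0.08, 0.13 and 0.23 in the 10-day pairs. Kidney markers (12 of 13) had medians of 0.07, -0.02 and -0.04 at 4 months and -0.04, -0.01 and -0.01 at 10 days, and gonad markers (8 of 10) had -0.19, -0.03 and -0.08 at 4 months and -0.06, -0.02 and -0.08 at 10 days. Pair 1, where Wt1 was lowest, had the lowest mesothelium and gonad medians and the highest kidney median, and their part in the Wt1 values was not tested.

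Cited2, the gene of a coactivator that works with WT1 (chr10:17723228-17725674), was positive in all 6 pairs with small values. It was at 0.23, 0.28 and 0.03 in the 4-month pairs and at 0.32, 0.08 and 0.09 in the 10-day pairs. The mean was 0.18 ± 0.13 at 4 months and 0.16 ± 0.14 at 10 days (SD, n = 3 each), and the groups overlap. Without pair 11 the 10-day mean was 0.084. Over all pairs it was 0.17 (95% interval -0.0003 to 0.34, limma adjusted p = 0.335). The pair values were closer to each other than the arrays behind them. Arrays were at 0.05, 0.39 and 0.11 in Cy3 and 0.40, 0.17 and -0.04 in Cy5 at 4 months. At 10 days they were at 0.54, 0.40 and -0.44 in Cy3 and 0.10, -0.24 and 0.62 in Cy5. In pair 15 the mean of 0.09 thus averages values of opposite sign, and 9 of 12 arrays were positive. The error of a pair mean from the dye swaps was 0.31, among the highest of all probes (percentile 93.1), against an SD within groups of 0.13.

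Of its family, Cited1 was also positive in all 6 pairs, at 0.54, 0.84 and 0.29 at 4 months and 0.75, 0.09 and 0.06 at 10 days, with a mean of 0.43 (limma adjusted p = 0.169). Cited4 had a mean of -0.08 and was positive in 2 pairs.

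**Figure D3:**
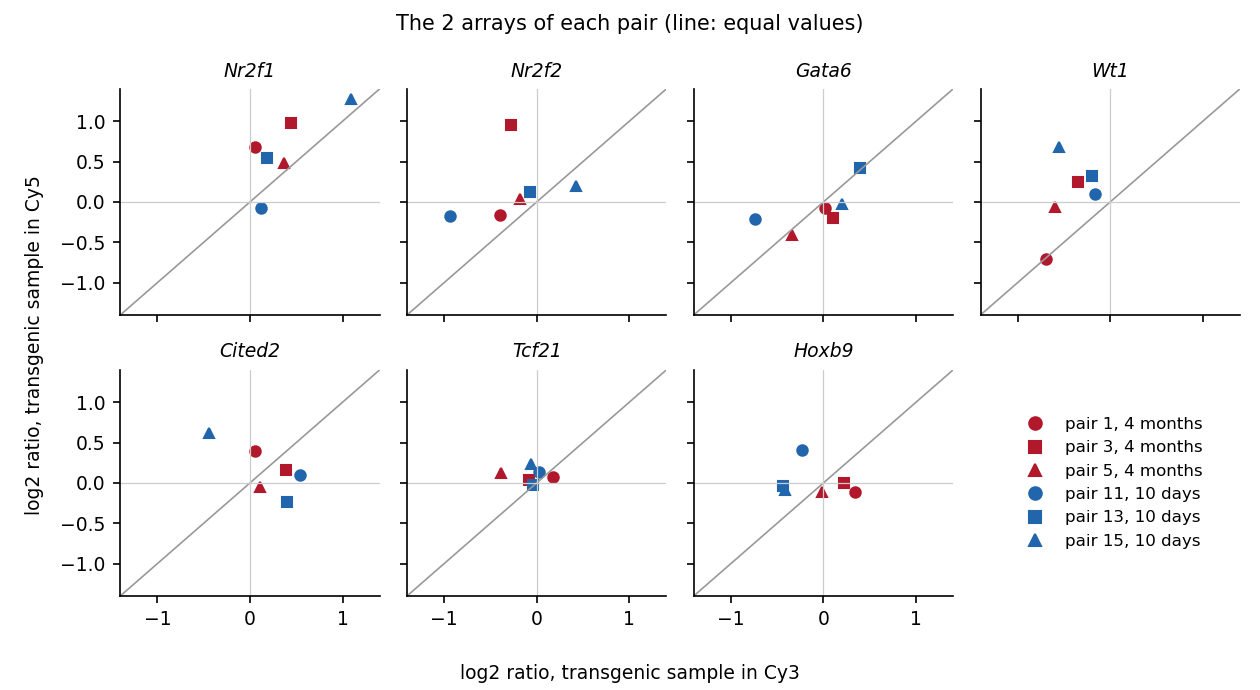
Corrected log2 ratio of each pair on the array with the transgenic sample in Cy3 (horizontal axis) against that in Cy5 (vertical axis), 1 panel per gene, with 4-month pairs in red and 10-day pairs in blue. Points on the diagonal have equal values. Nr2f1 lies right of 0 in all 6 pairs, Wt1 lies left of 0 in all 6 pairs, and Cited2 runs across the diagonal.

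Gata6, which encodes a zinc finger factor of the outer cortex and capsule (chr18:11052510-11085636), showed no common sign. It was at -0.03, -0.05 and -0.37 in the 4-month pairs, all negative, and at -0.48, 0.41 and 0.09 in the 10-day pairs. Pairs 11 and 13, of the same age and sex, were the lowest and the highest. The mean was -0.15 ± 0.19 at 4 months and 0.00 ± 0.45 at 10 days (SD, n = 3 each), and -0.07 over all pairs (95% interval -0.35 to 0.20, limma adjusted p = 0.814). Without pair 5 the 4-month mean was -0.040. Arrays were at 0.01, 0.10 and -0.33 in Cy3 and -0.08, -0.20 and -0.41 in Cy5 at 4 months. At 10 days they were at -0.74, 0.39 and 0.20 in Cy3 and -0.21, 0.42 and -0.02 in Cy5. The arrays thus had opposite signs in pairs 1, 3 and 15, were closest in pair 13 and were furthest apart in pair 11. The signal of the spot was at percentile 10.6, the dimmest of the 7. Among relatives, Gata4, the GATA gene that acts in the gonad and fetal adrenal, had a mean of 0.03 and values between -0.10 and 0.13. Gata3, a factor of chromaffin cells, was at 0.50 (limma adjusted p = 0.212) and Gata2 at 0.42 (adjusted p = 0.251), both positive in 5 of 6 pairs with pair 11 negative. Gata5 was at -0.10.

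Tcf21, which encodes a basic helix-loop-helix factor of capsular stroma (chr10:22817263-22820143), had the narrowest range of the 7 genes. It was at 0.12, -0.03 and -0.13 in the 4-month pairs and at 0.08, -0.03 and 0.09 in the 10-day pairs. The mean was -0.01 ± 0.13 at 4 months and 0.04 ± 0.07 at 10 days (SD, n = 3 each). Over all pairs it was 0.02 (95% interval -0.14 to 0.18, limma adjusted p = 0.937). All 12 arrays lay between -0.38 and 0.23. Its spot was dim, at percentile 16.8 of signal. Its relatives Twist1 and Msc had means of -0.22 and -0.33, which were -0.13 for Twist1 without pair 1 and -0.022 for Msc without pair 3. Twist2 was negative in 6 of 6 pairs, from -0.24 to -0.08, with a mean of -0.15 (limma adjusted p = 0.33).

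Hoxb9, the homeobox gene (chr11:96271330-96276595), was at 0.12, 0.11 and -0.06 in the 4-month pairs and at 0.09, -0.24 and -0.25 in the 10-day pairs. Pair 11 stood with the 4-month pairs 1 and 3, so the groups overlap. The mean was 0.05 ± 0.10 at 4 months and -0.13 ± 0.19 at 10 days (SD, n = 3 each), and the difference of 0.19 had a 95% interval of -0.17 to 0.54 (limma adjusted p = 0.936). Over all pairs the mean was -0.04 (95% interval -0.22 to 0.14, limma adjusted p = 0.85). Its arrays were at 0.34, 0.22 and -0.02 in Cy3 and -0.11, -0.00 and -0.11 in Cy5 at 4 months. At 10 days they were at -0.23, -0.43 and -0.42 in Cy3 and 0.41, -0.04 and -0.08 in Cy5. The SD between pairs of a group, 0.15, was below the error of a pair mean from the dye swaps, 0.21. Of 36 Hox genes measured, 17 were positive and 19 negative over all pairs, with a median of -0.01 against -0.01 for all features. Hoxa6 (0.51) and Hoxb6 (0.38) were the most positive, and Hoxd9 (-0.25) and Hoxd11 (-0.21) the most negative, all 4 with adjusted p-values in limma from 0.177 to 0.353. Without pair 3 the mean of Hoxb6 was 0.18.

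Set side by side, none of the 7 genes passed an adjusted p of 0.05 in limma in any comparison. Over all features the share that passed was 0.0558% over all 6 pairs and 0% at 4 months, at 10 days and for the difference. At an unadjusted p under 0.05 limma had 2 of the 7 at 4 months (Nr2f1 and Wt1), against 12.3% of all features. It had 1 of the 7 at 10 days (Nr2f1, 8.33% of all features), 1 over all pairs (Nr2f1, 15% of all features) and 0 for the difference (4.57% of all features). The median ratio of the 7 genes was -0.01 at 4 months and 0.03 at 10 days, and -0.04 over all pairs, against -0.01, -0.01 and -0.01 for all features. The median size of the ratio was 0.15 for the 7 genes and 0.13 for all features at 4 months, 0.0744 and 0.111 at 10 days, and 0.0728 and 0.0969 over all pairs. The 4-month minus 10-day difference was -0.02 for Nr2f1, 0.07 for Nr2f2, -0.16 for Gata6, 0.02 for Cited2 and -0.06 for Tcf21, beside the -0.39 of Wt1 and the 0.19 of Hoxb9, with adjusted p-values in limma from 0.935 to 0.998. Positive in 6 of 6 pairs were Nr2f1 and Cited2, 2 of the 7, against 5.66% of all features. In order of mean over all pairs the genes ran Nr2f1, Cited2, Tcf21, Hoxb9, Nr2f2, Gata6 and Wt1, and the interval of each overlaps that of its neighbours in this order.

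**Figure D4:**
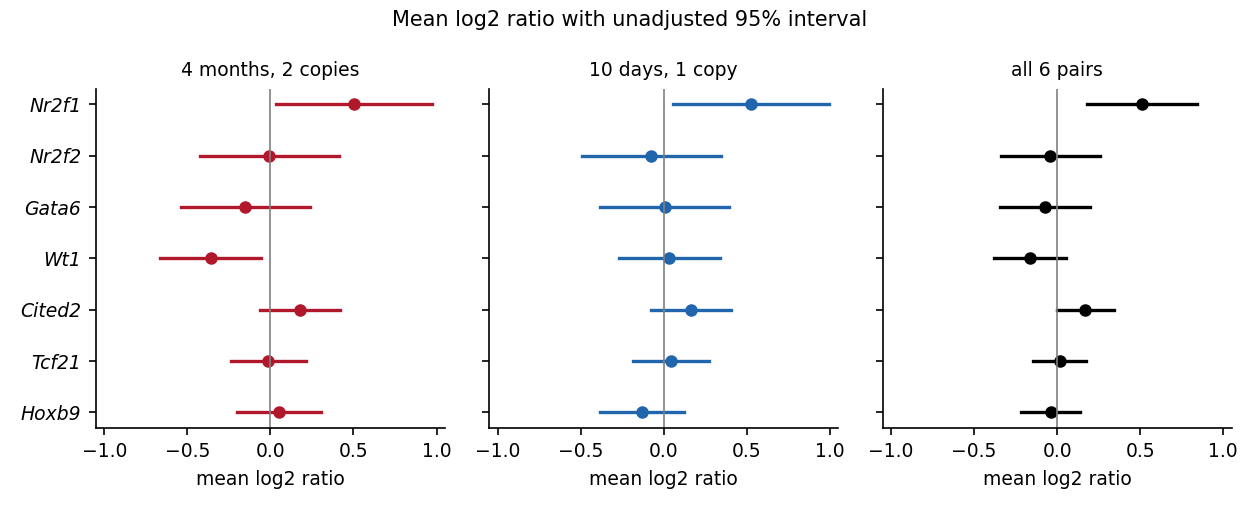
Mean log2 ratio (horizontal axis) of the 7 genes with its unadjusted 95% interval from limma, at 4 months, at 10 days and over all 6 pairs. Over all pairs only the Nr2f1 interval, 0.18 to 0.84, lies wholly above 0, and at 4 months only the Wt1 interval, -0.66 to -0.06, lies wholly below it.

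Within every pair the 7 genes lay on both sides of 0. In pair 1 they ran from -0.70 (Wt1) to 0.37 (Nr2f1), in pair 3 from -0.05 (Wt1) to 0.71 (Nr2f1), and in pair 5 from -0.37 (Gata6) to 0.42 (Nr2f1). In pair 11 they ran from -0.56 (Nr2f2) to 0.32 (Cited2), in pair 13 from -0.24 (Hoxb9) to 0.41 (Gata6), and in pair 15 from -0.25 (Hoxb9) to 1.19 (Nr2f1). Nr2f1 was thus the highest of the 7 in 4 pairs. The spread over the 6 pairs was widest for Nr2f1 (SD 0.40, percentile 84.8 of all features) and narrowest for Tcf21 (SD 0.10, percentile 3.9).

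The 23 other genes of adrenal cortical development that were measured were also spread about 0. Over all pairs 9 were positive and 14 negative, with a median of -0.04. Of all features 47.1% were positive, with a median of -0.01. At an unadjusted p under 0.05 limma had 2 positive and 2 negative, 4 of 23 against 15% of all features, and 0 at an adjusted p of 0.05. The most positive were Dlk1, which encodes a transmembrane protein of subcapsular and chromaffin cells, at 0.48 (limma adjusted p = 0.236) and Lhx9, a homeobox gene of the primordium, at 0.31 (limma adjusted p = 0.19). Lhx9 was positive in all 6 pairs and Dlk1 in 5, and Dlk1 was lowest in pair 11 (-0.11) and highest in pair 15 (1.02), as Nr2f1 was.

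The most negative of these genes were Wnt4, which encodes a signal of the outer cortex, at -0.46 and Nr5a1. Wnt4 was at -2.19, -0.70 and -0.40 in the 4-month pairs and at -0.75, -0.12 and 1.41 in the 10-day pairs, so its mean (limma adjusted p = 0.528) covers values on both sides of 0. Nr0b1, the gene of the SF-1 repressor DAX1, named here after its value was seen, was at -0.92, -0.54 and -0.33 at 4 months and -0.58, -0.22 and 0.20 at 10 days. Its mean was -0.40 (limma adjusted p = 0.197).

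**Figure D5:**
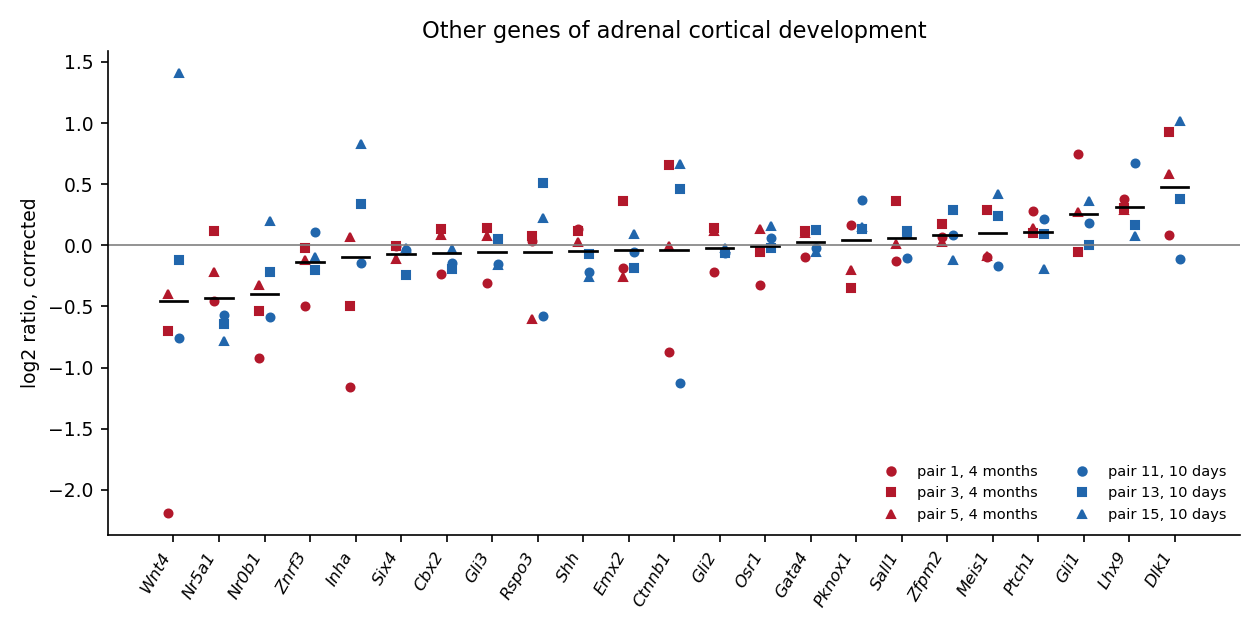
Corrected log2 ratio (vertical axis) of 23 other genes of adrenal cortical development in each pair, ordered by the mean over all pairs (black bars), with 4-month pairs in red left of 10-day pairs in blue. Means run from -0.46 (Wnt4) to 0.48 (Dlk1), and the pairs of one gene lie furthest apart for Wnt4.

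The genes whose 6 pair values were most like those of a member were looked up among 16770 genes, by Pearson's r over the 6 pairs. They were Osgin2 (r = 0.993), Etfa (0.991) and Eif3c (0.990) for Nr2f1, and Dbh (0.995), Tcf20 (0.993) and Sar1a (0.993) for Nr2f2. For Gata6 they were Ccdc185 (0.992), Xpc (0.983) and Rgma (0.979), and for Wt1 Dpy19l2 (0.994), Slc12a9 (0.990) and Il6st (0.989). For Cited2 they were Magea9-ps (0.993), 2610034N15Rik (0.983) and Psme1 (0.978), for Tcf21 Zp2 (0.992), Mro (0.992) and Olfr904 (0.985), and for Hoxb9 Tceal7 (0.997), Atmin (0.990) and Smarcad1 (0.989). With only 6 points shared by all genes, high r is common: between 25 and 57 genes passed r = 0.95 for each of the 7. Dbh encodes a catecholamine enzyme of chromaffin cells, and none of the genes named for one member was another of the 7.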

How the data were processed

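Per the labels, RNA of adrenal glands was measured on 12 2-colour arrays, 2 dye-swap arrays for each of 6 pairs. The authors deposited log2 ratios of both channels. Where Cy3 marked the transgenic sample (6 arrays), the values were logs of exact ratios of whole numbers up to 65535. No source used here gives the authors' scanner, image analysis, background correction or normalization. The log2 ratios of an array were corrected with a loess curve on spot signal (span 0.3). The signal was the geometric mean of those whole numbers, taken at percentile 75 over the 6 arrays. Each ratio gives these numbers only in lowest terms, so the signal can be too low by a factor that differs between spots and arrays. The signal is not recovered for a spot saturated in both channels.

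Probes of a gene were averaged, then both arrays of a pair. A feature needed at least 2 of 3 pairs in each group (21511 features). A mean per group was fitted to the 6 pair values in limma 3.58.1 under R 4.3.3 (4 residual and 3.85 prior degrees of freedom). Tests were two-sided, with Benjamini-Hochberg adjustment over all features and a threshold of 0.05. The p-values measure the spread between pairs. No signal over background is given, so precision rests on the number of pairs, since both arrays of a pair hold the same animals.

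All 7 members were named. Of each list the 2 most positive and 2 most negative genes could be named, and for each member the 3 genes most like it. Members and lists were chosen with earlier results of these data known. Alternatives were array median centring, deposited values, a loess span of 0.7, each dye orientation alone, scaled arrays, no dim probes, an ordinary linear model, a sex term, single probes and leaving out each pair. The procedure was tested on simulated data. Noise was drawn there for each array on its own, so a spread shared by both arrays of a pair was not simulated.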

Additional observations from a re-analysis of the deposited data

Results flagged for a closer look

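No gene of the 7 had a pair that stood apart from the others. The medians of 6 marker lists did, because 1 pair's distance to its nearest neighbour took up most of the range of the 6 pairs. Both groups hold 3 pairs, too few for this check, so the 6 pairs were taken as one set. Chance marks about 1 in 20 such sets, and 28 were checked.

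The values that stood apart were the adipocyte median of 1.78 in pair 15, the hepatocyte median of 1.46 in pair 11, the lymphocyte median of -1.86 and the endothelium median of -0.33 in pair 3, and the kidney median of 0.065 and the gonad median of -0.19 in pair 1. Nr2f1 was at 1.19 in pair 15, the highest of its 6 values, and at 0.02 in pair 11, the lowest. Wt1, a gene of gonad and kidney as well as of the adrenal primordium, was at -0.70 in pair 1, the lowest of its 6 values. The part of these cell types in the values of the 7 genes was not tested.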

How the results depend on the processing

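Over 16 alternatives 383 of 436 values of the 7 genes had the sign reported and 53 the opposite sign. None of these 53 had an unadjusted p under 0.05 in limma or the ordinary model, and 5 values passed the threshold that had not. Many of the 383 could not change sign. An ordinary model, a sex term, single probes and the removal of dim probes leave a gene's estimate as it was. Leaving out a pair leaves the mean of the other group as it was. Nr2f1 and Cited2 were positive at 4 months, at 10 days and over all pairs under every alternative.

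With the deposited values left uncorrected, which keep the offset of the arrays, medians of the 7 genes were 0.40 at 4 months, 0.32 at 10 days, 0.28 over all pairs and 0.19 for the difference. There 1 gene passed in limma at 4 months (Nr2f1, 0.80, adjusted p = 0.0241) and 2 over all pairs (Nr2f1, 0.71, adjusted p = 0.00532, and Cited2, 0.49, adjusted p = 0.0227), beside 2532 and 5942 features. Of opposite sign were Nr2f2 (0.39), Gata6 (0.25), Wt1 (0.042) and Tcf21 (0.40) at 4 months, Nr2f2 (0.13) and Hoxb9 (0.11) at 10 days, Nr2f2 (0.26), Gata6 (0.27), Wt1 (0.18) and Hoxb9 (0.28) over all pairs, and Nr2f1 (0.20) and Tcf21 (0.069) for the difference.

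A single dye orientation keeps the dye effect of each probe. With the transgenic sample in Cy3 the median at 10 days was -0.050. Over all pairs 1 gene passed in limma (Wt1, -0.42, adjusted p = 0.0426), beside 1411 of all features. Of opposite sign were Gata6 (-0.050), Wt1 (-0.30) and Tcf21 (-0.026) at 10 days, Tcf21 over all pairs (-0.063) and Nr2f2 for the difference (-0.088). With it in Cy5 the medians were 0.11 at 10 days and 0.096 over all pairs. There 1 gene passed in limma over all pairs (Nr2f1, 0.65, adjusted p = 0.0317), beside 3439 of all features. Of opposite sign were Nr2f2 (0.27), Tcf21 (0.075) and Hoxb9 (-0.074) at 4 months, Nr2f2 (0.050) and Hoxb9 (0.095) at 10 days, Nr2f2 (0.16), Wt1 (0.096) and Hoxb9 (0.011) over all pairs, and Nr2f1 (0.13) and Hoxb9 (-0.17) for the difference.

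With arrays centred on their median, the 10-day median was 0.12, and Nr2f2 (0.013) and Tcf21 (0.022) at 4 months and Nr2f1 for the difference (0.019) changed sign. So did Nr2f2 at 4 months with a loess span of 0.7 (0.0026) and Cited2 for the difference with scaled arrays (-0.012). Without probes under percentile 25 of signal 4 of the 7 genes remained, with medians of 0.12 at 4 months and 0.066 over all pairs.

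Leaving out 1 pair at a time gave medians of 0.016 to 0.084 at 10 days, -0.053 to 0.048 over all pairs and -0.17 to 0.018 for the difference. Ranges that cross 0 were, at 4 months, -0.18 to 0.13 for Nr2f2 and -0.079 to 0.047 for Tcf21; at 10 days, -0.27 to 0.17 for Nr2f2 and -0.20 to 0.25 for Gata6. Over all pairs they were -0.14 to 0.080 for Nr2f2, -0.17 to 0.048 for Gata6 and -0.018 to 0.045 for Tcf21. For the difference they were -0.27 to 0.31 for Nr2f1, -0.17 to 0.26 for Nr2f2, -0.40 to 0.045 for Gata6, -0.034 to 0.093 for Cited2 and -0.12 to 0.0034 for Tcf21. Without changing sign, Hoxb9 ran from 0.021 to 0.11 at 4 months, -0.24 to -0.073 at 10 days and -0.094 to -0.0094 over all pairs, Wt1 from 0.016 to 0.064 at 10 days and -0.55 to -0.22 for the difference, and Tcf21 from 0.022 to 0.082 at 10 days. The causes were not tested.

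Features called over all 6 pairs numbered 12, against 0 with median centring or a sex term, 1 in the ordinary model, 23 with scaled arrays, 54 with single probes, 1411 in Cy3, 3439 in Cy5 and 0 to 13 without a pair. Counts at 4 months were 288 in Cy3 and 915 in Cy5, and at 10 days 18 with deposited values, 31 in Cy3 and 222 in Cy5, each against 0; the difference had 14 with deposited values. Gata6, Wt1 and Tcf21 lie under percentile 25 of spot signal, which limits what their ratios can show. Each value already compares a transgenic mouse with its own littermate. Pairing the 4-month with the 10-day group was not possible because their replicate numbers are not shared.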
